A study of Homo sapiens with 6 samples.

Results

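Hedgehog signalling was described through 7 core genes, GLI1, GLI2, GLI3, PTCH1, SMO, SUFU and HHIP, in SiHa, a widely used line from a human squamous carcinoma of the cervix with integrated papillomavirus DNA. The members were taken from a deposited table of 35544 loci by gene name. Each of the 7 names stood on 1 row. The set was chosen by pathway and with the FPKM values of both groups known, in which GLI1 differed, so its values are given as a description with no test.

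The study asked which mRNAs change when the circular RNA hsa_circ_0005358 is overexpressed. In the first group, 3 libraries (circ_0005358) came from SiHa cells given a plasmid for that RNA. In the second, 3 libraries (vector) came from SiHa cells given the vector plasmid. All cells were collected 72 h after transfection, and polyA RNA was sequenced. The labels give several spellings of the circular RNA's name, which were taken to mean 1 RNA, and its own level was not analysed here. Nothing in the labels says that libraries of a group are from different cultures. The p-values below therefore reflect no more than the scatter among these libraries, and that scatter may be technical.

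Values are FPKM, fragments per kilobase of transcript corrected for sequencing depth. The table holds no counts. Loci with a single transcript showed the worth of 1 fragment, which on the 3613-base main GLI1 transcript was 0.0169 FPKM in circ_0005358 replicate 2, the shallowest library, and 0.012 to 0.0129 FPKM in the others. Vector replicate 3 stood apart at low levels. Of 20247 loci with a mean above 0 and under 0.3 FPKM, 52.9% had their highest value in that library, against 8.22% to 10.9% in each of the others. Epithelial markers were lower with circ_0005358, and all except KRT19 were present in every library. KRT19 stood at 6.40, 9.73 and 0.00991 FPKM with circ_0005358, on a row shared with other names. With vector it stood at 35.8, 30.6 and 34.5 FPKM, and the difference was not called (limma adjusted p = 0.0999). The simple keratin gene KRT8 fell to 74.4, 91.6 and 89.4 FPKM with circ_0005358, against 179.6, 174.4 and 184.7 FPKM with vector (limma adjusted p = 0.00237). The E-cadherin gene, CDH1, fell to 0.944, 0.883 and 1.05 FPKM with circ_0005358, against 8.78, 15.8 and 16.8 FPKM with vector (limma adjusted p = 0.00237). PTPRC, the pan-leukocyte surface phosphatase gene, reached at most 0.0605 FPKM and PECAM1, an endothelial adhesion gene, at most 0.332 FPKM. The macrophage marker CD68 was listed at 48.8 to 57.3 FPKM on a row shared with other names. CD14, a monocyte marker on a row of its own, stood at 1.33, 14.5 and 16.2 FPKM with circ_0005358 and at 13.2, 10.4 and 10.5 FPKM with vector. Its groups overlapped (limma adjusted p = 0.723), and the other 4 of the 6 leukocyte markers stayed at or under 0.256 FPKM.

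In hedgehog signalling, a secreted ligand binds the membrane receptor PTCH1 and so releases the transducer SMO from inhibition at the primary cilium. SMO then frees the GLI transcription factors from SUFU, a protein that holds them inactive. GLI2 and GLI3 carry the first response, GLI3 being chiefly processed to a repressor where no ligand is present. GLI1 acts only as an activator and is itself a target, as are PTCH1 and HHIP, which bind the ligand and limit the signal, so these genes are widely used as readouts of the pathway.

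The GLI proteins bind the sequence GACCACCCA. A promoter of PTCH1 is shown because it was the only listed promoter among those of the members and of the 116 other pathway genes described below that holds this motif. The window runs from 250 bases before to 50 bases after an annotated gene start, from RefSeq on GRCh38.p14, chr9:95509217-95509516, minus strand, and is written 5′ to 3′ along the gene. The capitals mark the motif, which reads as its reverse complement TGGGTGGTC and begins 172 bases before the start.
PTCH1 promoter: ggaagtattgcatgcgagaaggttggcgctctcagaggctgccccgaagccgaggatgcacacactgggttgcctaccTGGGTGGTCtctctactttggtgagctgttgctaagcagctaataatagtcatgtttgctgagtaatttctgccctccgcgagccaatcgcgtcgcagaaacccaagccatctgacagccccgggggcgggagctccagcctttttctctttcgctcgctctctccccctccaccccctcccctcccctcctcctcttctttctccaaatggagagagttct
The exact motif, on either strand, was in 1 of the 5 promoters listed for PTCH1 and in 83 of 35116 promoters in all (0.236%). Of the 7 members, 5 had a listed promoter and 1 of them held the motif, against 81 of 27305 genes in all (0.297%). GLI1 and GLI3 had no listed promoter, so they were not searched. Of the 116 other pathway genes, 89 had one and 0 held the motif. KRT17, SNAI1, FOXM1, SFRP1 and BTRC, described below, had no listed promoter and were not searched either. This counts only those letters in these windows.

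GLI1 was the most abundant of the 7 genes with circ_0005358 and was near 0 with vector. Its level was 14.4, 15.3 and 14.98 FPKM in the circ_0005358 libraries, against 0.0300, 0.0241 and 0.398 FPKM in the vector libraries. The groups did not overlap, and the lowest circ_0005358 library was 36.3 times the highest vector library. The means were 14.9 ± 0.431 FPKM with circ_0005358 and 0.151 ± 0.214 FPKM with vector (SD, n = 3 each). The ratio of these means was 99.0. It was 37.5 when vector replicate 3 alone stood for its group. On the log2(FPKM + 1) scale the difference was 3.80, and this scale understates changes of low genes. In bulk libraries, more cells with GLI1 RNA and more GLI1 RNA per cell cannot be told apart.

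The depth behind the vector values is thin. If all fragments lay on the main transcript, the circ_0005358 libraries held about 1123, 904 and 1214 GLI1 fragments, and the vector libraries about 2.44, 2 and 32.8. The vector level thus rests on a handful of fragments in replicates 1 and 2. Vector replicate 3, which was high at low loci in general, holds most of it, and the part of that library's low-level signal in its GLI1 value was not tested. The row carries the 3 GLI1 transcripts ENST00000228682, ENST00000530789 and ENST00000527742 and no other gene's name. GLI1 (ENSG00000111087) spans bases 57460135 to 57472262 of chromosome 12, plus strand, in GRCh38. The table gives no coordinates, and the genome build in the submitters' processing notes is hg19.

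**Figure D1:**
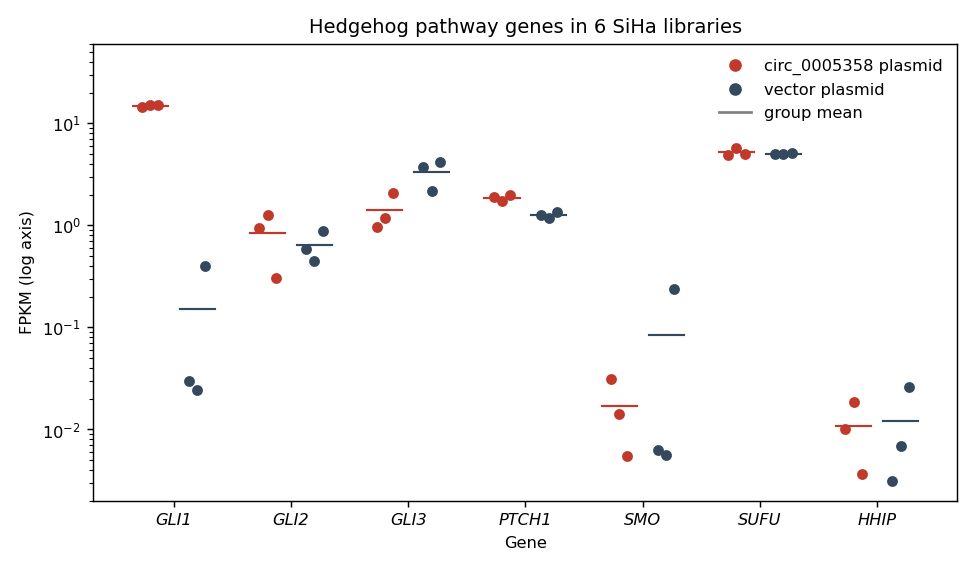
FPKM (log axis) of the 7 hedgehog genes in each library, with circ_0005358 libraries in red left of vector libraries in dark blue and a line at each group mean. GLI1 stands at 14.4 to 15.3 FPKM in the 3 circ_0005358 libraries and at 0.398 FPKM or less in the vector libraries, while SUFU sits near 5 FPKM in all 6.

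The other activator, GLI2, was low in both groups, and its groups overlapped. It stood at 0.939, 1.26 and 0.307 FPKM with circ_0005358 and at 0.582, 0.446 and 0.889 FPKM with vector. GLI3 was lower in every circ_0005358 library than in any vector library, at 0.972, 1.19 and 2.06 FPKM with circ_0005358, against 3.75, 2.17 and 4.18 FPKM with vector. The gap between the nearest libraries of the groups was small, 2.06 FPKM in circ_0005358 replicate 3 against 2.17 FPKM in vector replicate 2. The GLI3 means were 1.41 ± 0.573 FPKM with circ_0005358 and 3.37 ± 1.06 FPKM with vector (SD, n = 3 each), a log2 difference of -0.85.

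GLI1 and GLI3 therefore differed in opposite directions, and the makeup of GLI family RNA differed with them. GLI1 made up 88.3%, 86.2% and 86.4% of the summed FPKM of the 3 GLI genes in the circ_0005358 libraries, against 0.687%, 0.914% and 7.27% in the vector libraries. GLI3 made up 5.94%, 6.72% and 11.9% with circ_0005358, against 86.0%, 82.2% and 76.5% with vector. The sum itself was 16.4, 17.8 and 17.3 FPKM with circ_0005358 and 4.36, 2.64 and 5.47 FPKM with vector.

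**Figure D2:**
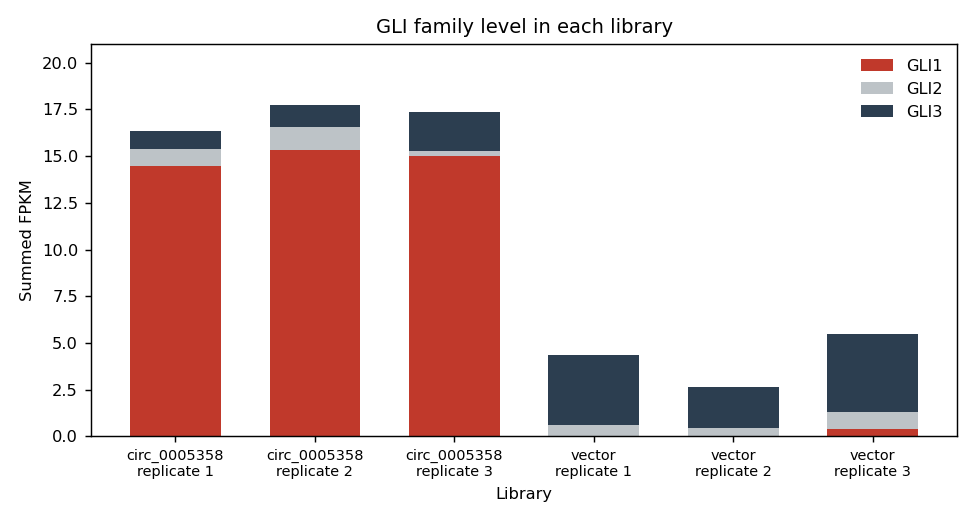
Summed FPKM of GLI1 (red), GLI2 (grey) and GLI3 (dark blue) in each library, stacked, with the circ_0005358 libraries on the left. GLI1 fills most of each circ_0005358 bar (86.2% to 88.3%), and GLI3 most of each vector bar (76.5% to 86.0%).

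The receptor gene PTCH1 was modestly higher with circ_0005358, at 1.88, 1.72 and 2.01 FPKM, against 1.26, 1.18 and 1.36 FPKM with vector. The groups did not overlap, with means of 1.87 ± 0.145 FPKM with circ_0005358 and 1.27 ± 0.0920 FPKM with vector (SD, n = 3 each), a ratio of 1.48. The log2 difference was 0.34. PTCH1 (ENSG00000185920) spans bases 95442980 to 95517057 of chromosome 9, minus strand, in GRCh38. Which of its promoters the RNA came from is not shown by a value per locus.

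The ligand-binding inhibitor HHIP, another textbook target, was near 0 in every library. It stood at 0.0100, 0.0187 and 0.00369 FPKM with circ_0005358 and at 0.00312, 0.00686 and 0.0261 FPKM with vector. The transducer SMO was also near 0, at 0.0311, 0.0142 and 0.00550 FPKM with circ_0005358 and at 0.00633, 0.00564 and 0.240 FPKM with vector. On its single transcript these values equal about 2.50, 0.867 and 0.461 fragments with circ_0005358, and 0.533, 0.484 and 20.5 fragments with vector. Estimates under 1 are not whole fragments, so this scale is only rough for SMO. Both genes had their highest value in vector replicate 3, and no difference between groups could be read at this depth.

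The inhibitor SUFU was expressed throughout, at 4.94, 5.68 and 4.96 FPKM with circ_0005358 and at 4.999, 4.97 and 5.10 FPKM with vector. Its groups overlapped, with means of 5.20 ± 0.423 FPKM with circ_0005358 and 5.03 ± 0.0702 FPKM with vector (SD, n = 3 each). Of the 7 members, the groups of GLI1, GLI3 and PTCH1 (3 genes) did not overlap. The share over all 10295 loci with at least 1 FPKM in at least 3 libraries was 35.8%, and nothing is read from the members' count, since this difference was known when they were chosen. GLI1, GLI3, PTCH1 and SUFU reached that filter, GLI1 only through the circ_0005358 libraries, and GLI2, SMO and HHIP did not.

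FPKM is scaled by length, so the levels can be ordered. With circ_0005358 the order of means ran GLI1, SUFU, PTCH1, GLI3, GLI2, SMO and HHIP. In it the libraries of PTCH1 and GLI3, of GLI3 and GLI2, and of SMO and HHIP overlapped. With vector it ran SUFU, GLI3, PTCH1, GLI2, GLI1, SMO and HHIP, and the libraries of GLI1 and SMO and of SMO and HHIP overlapped. GLI1 thus stood at the top of the 7 with circ_0005358 and above only SMO and HHIP with vector. Among all loci its rank was 2235, 2122 and 2166 in the circ_0005358 libraries and 19333, 19924 and 12899 in the vector libraries.

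None of the genes beside GLI1 on chromosome 12 differed by as much. Of the 10 annotated genes on either side, 16 had a row and 9 of these stayed at or under 0.569 FPKM in all libraries. INHBE, the nearest gene upstream and an activin-family subunit gene, stood at 0.0308, 0.0243 and 0.0592 FPKM with circ_0005358 and at 0.0294, 0.0356 and 0.361 FPKM with vector. ARHGAP9, a gene whose 3′ end meets that of GLI1 on the opposite strand, stood at 0.0353, 0.0208 and 0.00883 FPKM with circ_0005358 and at 0.0210, 0.0227 and 0.1497 FPKM with vector. Both were near 0 in the circ_0005358 libraries, beside a GLI1 level of 14.4 FPKM or more, and the labels do not say whether reads were counted by strand.

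The next expressed gene downstream, MARS, which encodes methionyl-tRNA synthetase, was at 19.97, 20.6 and 18.7 FPKM with circ_0005358 and at 19.8, 17.6 and 19.1 FPKM with vector (limma adjusted p = 0.578). Log2 differences of the 7 neighbours that could be tested ran between -0.42 and 0.34, against 3.80 for GLI1. Of these 7, PIP4K2C, a lipid kinase gene, was the only one to pass the test: it fell to 12.4 ± 1.28 FPKM with circ_0005358, against 16.96 ± 0.498 FPKM with vector (SD, n = 3 each, limma adjusted p = 0.0341). That call held without circ_0005358 replicate 1 and was lost without any other library (limma adjusted p = 0.0547 to 0.116). None of the 7 was called higher by limma, and 1 was higher at an unadjusted p under 0.05.

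**Figure D3:**
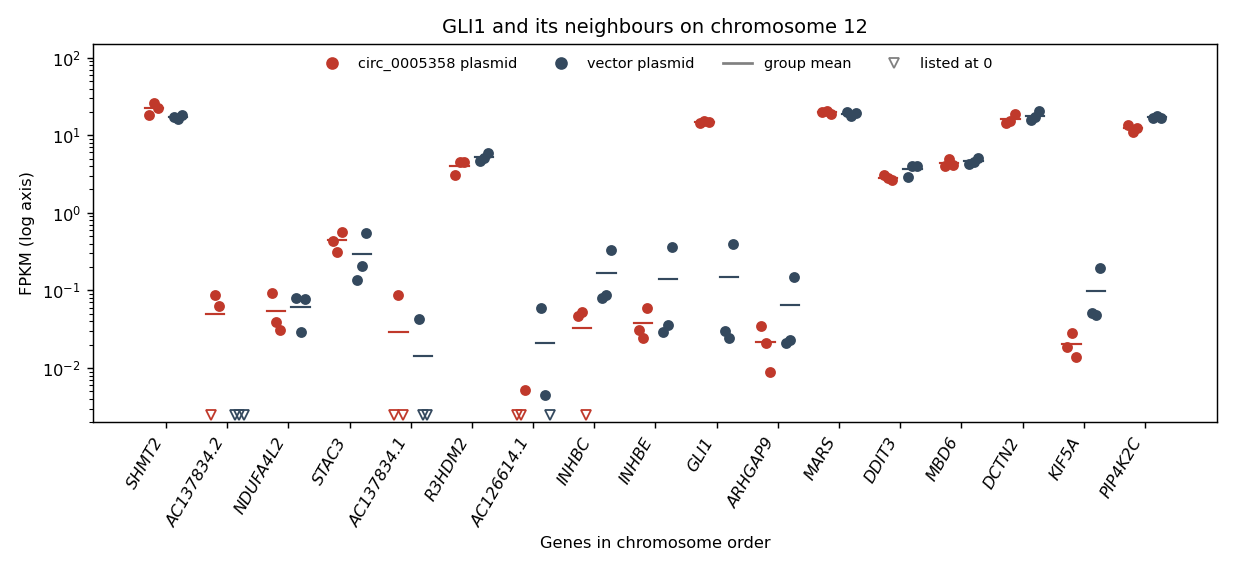
FPKM (log axis) of GLI1 and the 16 neighbours with a row, in chromosome order, with circ_0005358 libraries in red left of vector libraries in dark blue, lines at group means and triangles for values listed at 0. GLI1 is apart by its difference between groups, with INHBE and ARHGAP9 beside it at 0.361 FPKM or less in every library.

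Loci with the same course as GLI1 were few. All 3 circ_0005358 libraries at 5 FPKM or more and all vector libraries under 1 FPKM was met by 7 loci (0.068% of those tested), and the opposite by 4 (0.0389%). By Euclidean distance of log2(FPKM + 1) over the 6 libraries, the 5 loci with a single name nearest to GLI1 were HNRNPA0, H19, CEBPD, TRIM14 and AC010175.1, at distances of 0.744, 1.68, 1.80, 2.31 and 2.34. HNRNPA0, an RNA-binding protein gene, was listed at 0 in every vector library and at 19.05, 19.2 and 18.4 FPKM with circ_0005358. TRIM14, an antiviral signalling gene, was measured well in both groups, at 14.5, 15.6 and 14.4 FPKM with circ_0005358 and at 1.56, 1.98 and 2.04 FPKM with vector. These loci were picked for their likeness, so no test is given for them.

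**Figure D4:**
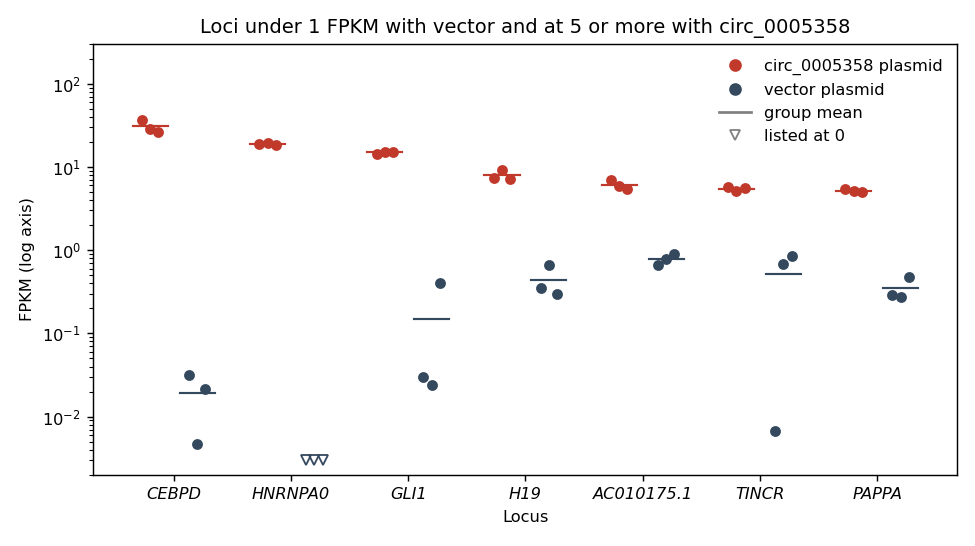
FPKM (log axis) of the 7 loci at 5 FPKM or more in all circ_0005358 libraries (red, left) and under 1 FPKM in all vector libraries (dark blue, right), ordered by their circ_0005358 mean, with lines at group means and triangles for values listed at 0. GLI1 is the third, after CEBPD and HNRNPA0.

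The rest of the pathway was followed in 6 lists of 116 genes, of which 83 passed the filter and were tested. With circ_0005358, 4 rose and 6 fell, 12% of those tested, next to 11.4% of all 10295 loci (6.41% higher and 4.96% lower). The median log2 difference of the 83 was -0.004, against 0.022 over all tested loci. The pooled share was near that of the whole table, and the lists differed in their shares: 42.9% of the tested reported targets, 6.25% of the regulators and 3.12% of the cilium genes were called. No test was made of the difference between lists.

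No ligand gene reached the filter. SHH, the founding ligand, stood at 0.0399, 0.0633 and 0.0620 FPKM with circ_0005358 and at 0.0518, 0.0517 and 0.221 FPKM with vector. IHH and DHH, the other ligands, reached at most 0.110 FPKM with circ_0005358 and 0.554 FPKM with vector. Of the 9 genes for ligands, their lipid attachment and their release, 7 had their highest value in vector replicate 3. The highest of the 9 was DISP1, which exports the lipid-bearing ligand, at 1.24, 0.989 and 0.427 FPKM with circ_0005358 and at 0.806, 0.826 and 1.17 FPKM with vector, with groups that overlapped.

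Among 6 receptor and co-receptor genes, 2 were tested and GAS1 rose. GAS1, a membrane-anchored co-receptor that aids ligand binding to PTCH1, stood at 2.40, 2.63 and 3.07 FPKM with circ_0005358, against 1.62, 1.71 and 1.48 FPKM with vector. The groups did not overlap, and the log2 difference was 0.50 (standard error 0.089, limma adjusted p = 0.0248). The call was lost without circ_0005358 replicates 2 or 3 (limma adjusted p = 0.0676 and 0.0605) and without vector replicates 1, 2 or 3 (limma adjusted p = 0.0854, 0.0715 and 0.0815). CDON, a co-receptor of the immunoglobulin family, had a log2 difference of -0.38 with overlapping groups (limma adjusted p = 0.264).

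LRP2, a large endocytic receptor that binds SHH, lay just under the filter. It stood at 0.952, 1.07 and 1.24 FPKM with circ_0005358, against 0.0947, 0.0798 and 0.163 FPKM with vector, a ratio of the means of 9.65 with groups that did not overlap. With no filter on low values its limma adjusted p was 0.0169, and p was 0.1 in an exact permutation test, two-sided, which is the smallest that 3 against 3 libraries allow.

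All 32 genes for kinases, ubiquitin ligase parts and other regulators of SMO and the GLI proteins were tested, and 1 rose and 1 fell. CUL1, the scaffold of the SCF ubiquitin ligases, rose to 44.0, 38.7 and 45.4 FPKM with circ_0005358, against 28.9, 29.7 and 27.7 FPKM with vector (log2 difference 0.55, standard error 0.076, limma adjusted p = 0.0114). That call was lost without vector replicate 1 (limma adjusted p = 0.0506). It was also lost when same-numbered libraries of the groups were paired in the fit (limma adjusted p = 0.0876). BTRC, the F-box protein that directs SCF to phosphorylated GLI proteins, fell to 7.25, 6.78 and 7.23 FPKM with circ_0005358, against 8.65, 8.71 and 8.38 FPKM with vector (log2 difference -0.25, limma adjusted p = 0.0469). Its call was lost whichever library was left out (limma adjusted p = 0.0922 to 0.149).

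The G protein-coupled receptor kinase GRK2, which phosphorylates SMO, missed the threshold, with means of 8.20 ± 0.482 FPKM with circ_0005358 and 5.72 ± 0.847 FPKM with vector (SD, n = 3 each, limma adjusted p = 0.051). So did GSK3B, a kinase that marks GLI proteins for processing, at 17.7 ± 0.394 FPKM with circ_0005358 and 22.5 ± 2.35 FPKM with vector (SD, n = 3 each, limma adjusted p = 0.0712). The catalytic subunit gene PRKACA of protein kinase A, the main restraint on GLI activation, averaged 12.9 ± 0.785 FPKM with circ_0005358 and 12.8 ± 0.649 FPKM with vector (SD, n = 3 each, limma adjusted p = 0.936).

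Of 35 primary cilium genes, 32 were tested, 1 fell and none was called higher by limma (1 was higher at an unadjusted p under 0.05). OFD1, a centriole protein gene needed for cilium formation, fell to 7.71, 7.91 and 8.03 FPKM with circ_0005358, against 9.83, 9.98 and 10.8 FPKM with vector (log2 difference -0.33, limma adjusted p = 0.0240). Its call was lost whichever library was left out (limma adjusted p = 0.0639 to 0.0762). KIFAP3, an adaptor of the kinesin that moves cargo into cilia, and IFT122, a part of the retrograde transport complex, had log2 differences of -0.22 and 0.21 and did not pass (limma adjusted p = 0.0543 and 0.0797). EVC and EVC2, which encode ciliary partners of SMO, were low in all libraries, at most 0.147 FPKM.

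Genes reported elsewhere as GLI targets moved both ways. Of 27, 14 were tested, 2 rose and 4 fell (42.9% called, against 11.4% over all tested loci). SNAI1, an epithelial-mesenchymal transition factor, rose to 10.03, 10.7 and 11.96 FPKM with circ_0005358, against 6.99, 5.43 and 6.15 FPKM with vector (log2 difference 0.73, standard error 0.11, limma adjusted p = 0.0139). The SNAI1 call was lost without circ_0005358 replicate 3 or vector replicate 3 (limma adjusted p = 0.0514 and 0.0547). Pairing same-numbered libraries of the groups in the fit also lost it (limma adjusted p = 0.0847). FOXM1, a mitotic transcription factor, rose to a mean of 35.6 ± 1.60 FPKM with circ_0005358, against 28.5 ± 0.518 FPKM with vector (SD, n = 3 each, limma adjusted p = 0.0225). Its call held without circ_0005358 replicate 2 and was lost without any other library (limma adjusted p = 0.0579 to 0.0886).

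The targets that fell included the one with the highest level. KRT17, a stress-induced keratin gene, fell to 192, 215 and 209 FPKM with circ_0005358, against 666, 584 and 626 FPKM with vector (log2 difference -1.60, standard error 0.073, limma adjusted p = 0.000443). KRT17 also belongs to a list of 8 epithelial marker genes, of which 7 fell, KRT17 among them. The summed level of the 8 ran from 624 to 705 FPKM with circ_0005358 and from 1306 to 1383 FPKM with vector. KRT17 is a large part of that sum, with means of 205 FPKM with circ_0005358 and 625 FPKM with vector. The sum is therefore not independent of the KRT17 result. Of 6 fibroblast markers, 1 was tested: LUM, a matrix proteoglycan gene, fell to 1.69, 1.11 and 1.49 FPKM with circ_0005358, against 6.35, 6.85 and 9.21 FPKM with vector (limma adjusted p = 0.00285). The collagen gene COL3A1, below the filter, stood at 0.784, 0.824 and 0.857 FPKM with circ_0005358 and at 0.0862, 0.0357 and 0.206 FPKM with vector. The part of these marker differences in the KRT17 result was not tested. HES1, a repressor best known as a Notch target, fell to 3.42, 3.15 and 3.31 FPKM with circ_0005358, against 7.46, 7.86 and 7.51 FPKM with vector (log2 difference -1.004, limma adjusted p = 0.000771).

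SFRP1, a secreted WNT antagonist, fell to 1.98, 2.18 and 2.27 FPKM with circ_0005358, against 3.66, 4.05 and 3.96 FPKM with vector (log2 difference -0.64, limma adjusted p = 0.00515). CCNE1, the G1/S cyclin E gene, fell to 7.66 ± 0.132 FPKM with circ_0005358, against 10.2 ± 1.03 FPKM with vector (SD, n = 3 each, limma adjusted p = 0.0458), a call lost whichever library was left out (limma adjusted p = 0.0564 to 0.132). The other 13 targets, among them CCND1, CCND2, MYCN, BCL2 and BMP4, lay below the filter, at most 0.849 FPKM in any library, and 10 of the 13 were highest in vector replicate 3. CCND1, the cyclin D1 gene, stood at 0.287, 0.166 and 0.520 FPKM with circ_0005358 and at 0.849, 0.592 and 0.313 FPKM with vector, with overlapping groups.

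**Figure D5:**
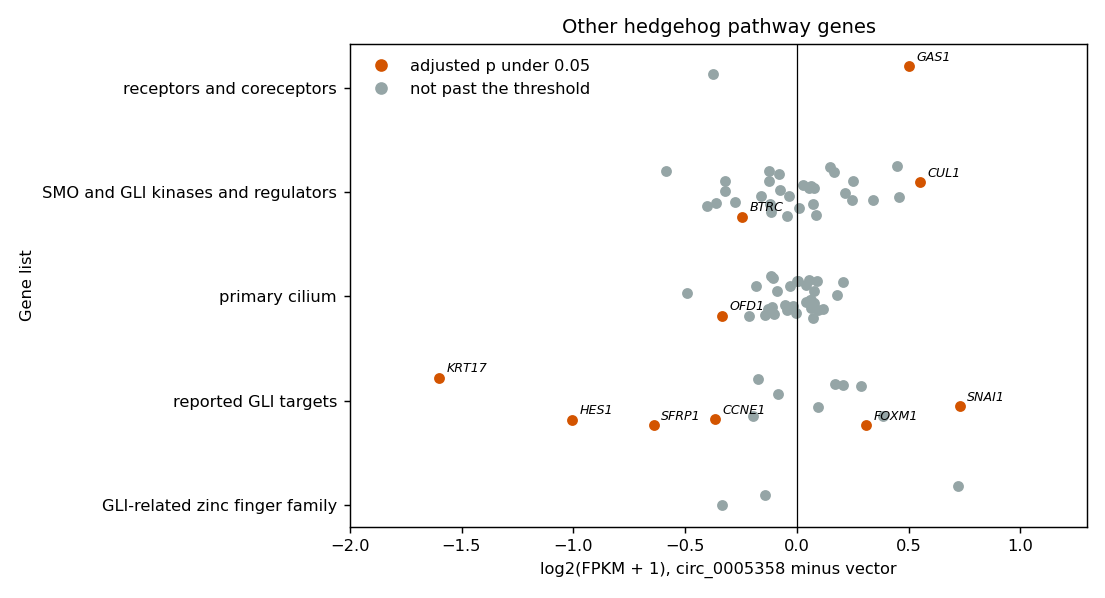
Differences in log2(FPKM + 1), circ_0005358 minus vector, of the tested genes of 5 pathway lists (no ligand gene was tested), with genes past a limma adjusted p of 0.05 in orange and named. Most genes lie near 0, and the called targets lie on both sides, from KRT17 at -1.60 to SNAI1 at 0.73.

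Of 8 zinc finger genes related to the GLI family, 3 were tested and none was called by limma (1 was lower at an unadjusted p under 0.05). ZIC5, which encodes a developmental factor with GLI-type zinc fingers, had means of 1.39 ± 0.115 FPKM with circ_0005358 and 2.02 ± 0.229 FPKM with vector, and its groups did not overlap (SD, n = 3 each, limma adjusted p = 0.0628). GLIS2, a GLI-similar factor gene, stood at 1.47, 3.91 and 3.59 FPKM with circ_0005358 and at 2.13, 0.933 and 1.05 FPKM with vector, with overlapping groups (limma adjusted p = 0.234). The other 5 stayed at or under 0.302 FPKM.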

How the data were processed

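The authors deposited 1 table of FPKM values for 6 SiHa libraries. Trimmomatic, HISAT2 and the build hg19 were used, per the submitters' processing notes. For Trimmomatic and HISAT2 versions, the FPKM program and the gene models, the entry is: not given in the sources used here. For a symbol on more than 1 row, the row of highest mean FPKM was taken. Rows that join several names were used for each name (12 of the 116 pathway genes, and the markers KRT19, KRT5 and CD68). The filter was at least 1 FPKM in 3 or more libraries. Values as log2(FPKM + 1) were compared by limma 3.58.1 (R 4.3.3, eBayes with trend, two-sided), and p-values were adjusted by Benjamini-Hochberg over all 10295 tested loci, with 0.05 as threshold. The script was tested on simulated data in which 200 of 10295 loci were changed. Folds were of FPKM + 1, so they stand for larger changes of FPKM at low loci. Changed loci had a vector mean of log2(FPKM + 1) above 1, and scatter was independent between libraries. It recovered 52% of 1.5-fold changes, 64% of 2-fold changes and 84% of both 3-fold and 4-fold changes. It also called 11 unchanged loci.

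Depth came from the commonest value of FPKM times length at 9434 loci with 1 transcript of at least 500 bases, with lengths from GENCODE 29. It is an estimate, and no counting interval was drawn from it. Genes named are the 7 members, in each list those past the threshold and up to 4 with the smallest p, genes beside GLI1 in GENCODE 29 and the 5 nearest loci. SHH, IHH, DHH, DISP1, LRP2, PRKACA, EVC, EVC2, CCND1 and the markers KRT8, KRT19, CDH1, PTPRC, PECAM1, CD68, CD14, LUM and COL3A1 were named after their values were seen. The members and lists were chosen with earlier results of these data known. Alternatives tried were pseudocounts of 0.1 and 0.5, no filter, a filter of 5 FPKM in 3 libraries, rescaling to the same sum, quantile normalization, a block on the replicate number, leaving out libraries in turn and summing the rows of a symbol.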

Additional observations from a re-analysis of the deposited data

How the results depend on the processing

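The GLI1 difference on the log2 scale was 4.61 with a pseudocount of 0.5 and 6.23 with 0.1, in place of 3.80 with 1, because a smaller pseudocount weighs less against the vector values near 0. It ran from 3.73 to 3.95 with single libraries left out. The PTCH1 difference was 0.42 and 0.53 with pseudocounts of 0.5 and 0.1. With no filter on low values, which raises the number of loci tested, 591 loci changed in place of 1171, and 3 pathway genes fell in place of 6. In that setting the calls of GAS1, BTRC, OFD1, CCNE1 and FOXM1 were lost (limma adjusted p = 0.0687 to 0.133). With single libraries left out, 485 to 761 loci changed, 1 to 4 pathway genes rose and 3 to 4 fell. Libraries of both groups carry the numbers 1 to 3, and deviations of same-numbered libraries correlated at 0.064, 0.048 and 0.078. These lay under the 0.1 taken to show pairing, although each library correlated best with its own number. Whether the numbers pair the libraries was therefore not settled. With the replicate block, 259 loci changed, 3 pathway genes fell and 0 rose by limma (10 rose at an unadjusted p under 0.05). The calls of GAS1, CUL1, SNAI1 and FOXM1 were thus lost under the block (limma adjusted p = 0.0847 to 0.117). Of 10 called pathway genes, KRT17, HES1 and SFRP1 kept their calls in every alternative that tested them, and none of the 10 changed direction. Over these 10 genes, 85 of 128 alternative values kept the call. Under the block the row of SPOPL, which is not in the lists, also lost its call (limma adjusted p = 0.0644). Depth limits SMO and the vector level of GLI1, at about 2.5 fragments or fewer in every library but vector replicate 3, and HHIP, at 0.0261 FPKM or less.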

Other observations

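The deposited table's own KEGG term for hedgehog signalling, looked at after the data were seen, marked 46 loci, of which 7 were the members. Of the other 39, 35 were in the lists described above and 26 were tested. Among these, 3 rose and 1 fell, where 6.41% of all tested loci were higher and 4.96% lower, with a median log2 difference of -0.04. The one locus that rose and was not in the lists was a row that joins SPOPL, which encodes a relative of the ubiquitin ligase adaptor SPOP, and AC092620.2. Its means were 10.04 ± 0.0349 FPKM with circ_0005358 and 6.98 ± 0.108 FPKM with vector (SD, n = 3 each, log2 difference 0.47, limma adjusted p = 0.00463).

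A pair of kinase genes, picked after their values were seen, differed more between library numbers than between plasmids. How many other loci did so was not counted. PRKACB, another catalytic subunit of protein kinase A, stood at 2.89, 10.7 and 1.89 FPKM in circ_0005358 replicates 1 to 3 and at 2.71, 11.3 and 2.11 FPKM in vector replicates 1 to 3. CSNK1A1, a casein kinase gene that acts on SMO and GLI proteins and whose row also holds AC021078.1, stood at 20.2, 11.8 and 18.5 FPKM with circ_0005358 and at 21, 12.7 and 19.8 FPKM with vector. In replicate 2 of both groups PRKACB was thus high and CSNK1A1 low.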
